A study of Rattus norvegicus with 38 samples.

Results

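The DMRs of 7 developmental regulators, Tbx3, Tbx4, Gata3, Tfap2c, Sim2, Skor1 and Nr2f2, are described here: 13 of the 3417 DMRs of the series. They are all the DMRs that the gene column of the study's 2 tables of weighted DMRs assigns to these genes, found again by position in the deposited methylation percentages. The series consists of buccal swabs, a mixture of cheek epithelial cells and leukocytes, from 19 Sprague-Dawley rat pups, each swabbed on postnatal day (P) 2 and on P10 and measured by reduced representation bisulfite sequencing (RRBS). After the P2 swab, pups of mixed litters were assigned to a control cage with standard bedding or to a cage with limited bedding and nesting material (LBN), and 10 control and 9 LBN pups were measured, 6 and 5 of them in cohort 1 and 4 and 4 in cohort 2. The cohorts were run at different dates. No sample carries a sex, dam or cage, so pups of one group may have shared a dam. RRBS gives no expression values, so the cell makeup of the swabs could not be checked against marker genes.

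T-box proteins such as Tbx3 and Tbx4 bind DNA through a shared domain and pattern limbs and other organs, Tbx4 being best known for the hindlimb and the lung. Gata3 is a zinc finger factor of T lymphocytes and of skin and other epithelia, and Tfap2c, an AP-2 factor, acts in the trophoblast, the neural crest and the epidermis. Sim2 is a bHLH-PAS factor, Skor1 is a corepressor related to Ski, and Nr2f2 (COUP-TFII) is an orphan nuclear receptor of venous and mesenchymal development. Promoters and CpG islands of such regulators are commonly kept at low DNA methylation.

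The study's tables were made from these same pups. One table holds DMRs by their weight on the component that separated P2 from P10 in control pups (called the age table here), and the other holds DMRs by their weight on the component of within-pup change that separated LBNs from controls (the experience table). Of the 13 DMRs, 8 are in the experience table only, 3 are in both and 2 are in the age table only. The change with age was therefore tested in all 19 pups only at the 8 DMRs of the first kind and in LBN pups only at the 5 of the age table, and LBN was tested against control only at the 2 that the experience table does not list. Every DMR of the series had been called for a difference between P2 and P10 in some of these pups. Each value is the percentage of methylated reads at a DMR. How many reads lie behind a value is not stated, so its depth is unknown and single values have no counting error.

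Positions are on rn6, and DMRs of one gene carry letters in genome order. Tbx3 had 4 DMRs on chromosome 12: a, an intergenic DMR at 42476247 to 42476254, b, an intergenic CpG at 42478636 to 42478637, and c and d, 2 exonic CpGs at 42483271 to 42483272 and 42483627 to 42483628. DMRs c and d were in both tables. Skor1 had 3 intergenic CpGs on chromosome 8, of which a at 68021119 to 68021120 and b at 68021241 to 68021242 lay 122 bp apart and c, at 68026358 to 68026359, lay a further 5117 bp away. Gata3 had an intergenic CpG on chromosome 17, a, at 72426967 to 72426968, and an exonic CpG, b, at 72430892 to 72430893, which was in the age table only. Tfap2c had an intergenic CpG on chromosome 3 at 170548555 to 170548556, which was in both tables. Sim2 had an exonic DMR of 131 bp on chromosome 11 at 34353770 to 34353900. Nr2f2 had an intronic DMR on chromosome 1 at 131452600 to 131452610, in the age table only. The other DMRs were in the experience table only, and 10 of the 11 members of that table were among its negative weights, Sim2 being the exception. Intergenic DMRs carry the name of a gene whose start lies within 20 kb, as the study states, and no link to that gene's activity was measured.

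Tbx4 was the only gene with a DMR annotated as promoter-TSS, a single CpG on chromosome 10 at 73332987 to 73332988. The 250 bases before the Tbx4 start in RefSeq (assembly GRCr8, plus strand, chr10:71228306-71228555) are shown because this DMR is the one assigned to a promoter. CCGG, the site that the enzyme MspI cuts to make RRBS fragments and which reads the same on both strands, is in capitals.

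Tbx4: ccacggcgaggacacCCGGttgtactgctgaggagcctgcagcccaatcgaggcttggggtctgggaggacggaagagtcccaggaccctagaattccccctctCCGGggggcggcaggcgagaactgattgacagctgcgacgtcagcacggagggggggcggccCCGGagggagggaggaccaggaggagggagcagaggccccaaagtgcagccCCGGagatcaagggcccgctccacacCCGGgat

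The window holds 5 CCGG sites and 16 CG positions and is 68.4% G or C. At least 1 CCGG was present in 46.2% of 33469 rat promoter windows of this length, at least 4 in 8.42%, and the median window held 5 CG. The files use rn6 and the sequence is from GRCr8, so the measured CpG was not placed in it. Windows were also found for Gata3 (1 CCGG and 17 CG) and for 2 starts of Skor1 (6 CCGG and 39 CG at one, 1 CCGG and 15 CG at the other).

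Most of these DMRs were weakly methylated. At P2, 11 of the 13 had a mean under 30%, against 604 of all 3417 DMRs (17.7%), whose median was 51.0%. Low levels were not particular to these genes. The median was 16.3% over the 13, 14.6% over 24 DMRs listed for homeobox genes and 25.2% over 24 listed for other developmental factors. Over the 581 listed DMRs other than the 13 it was 34.5%. The lowest mean was found at Gata3 DMR b, with 5.44% ± 2.52 (SD, n = 19 pups), followed by the exonic DMR of Sim2 with 5.84% ± 5.52 and Gata3 DMR a with 5.91% ± 3.87, and these 3 differed from each other by less than the spread between pups. Tfap2c followed with 7.98% ± 4.98, Tbx3 DMR b with 9.32% ± 3.77 and Skor1 DMR c with 12.0% ± 5.07. Tbx3 DMR d had 16.3% ± 10.3, the Tbx4 promoter CpG 20.6% ± 10.6, Nr2f2 21.9% ± 5.10, Tbx3 DMR a 23.8% ± 7.13 and Tbx3 DMR c 25.3% ± 8.40. Only Skor1 DMRs b and a were above the median of all DMRs, with 52.3% ± 12.5 and 55.9% ± 16.3. Within Skor1, the pair of neighbouring CpGs was thus more than 40 percentage points above the CpG c, and this gap exceeded the SD of any of the 3.

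**Figure D1:**
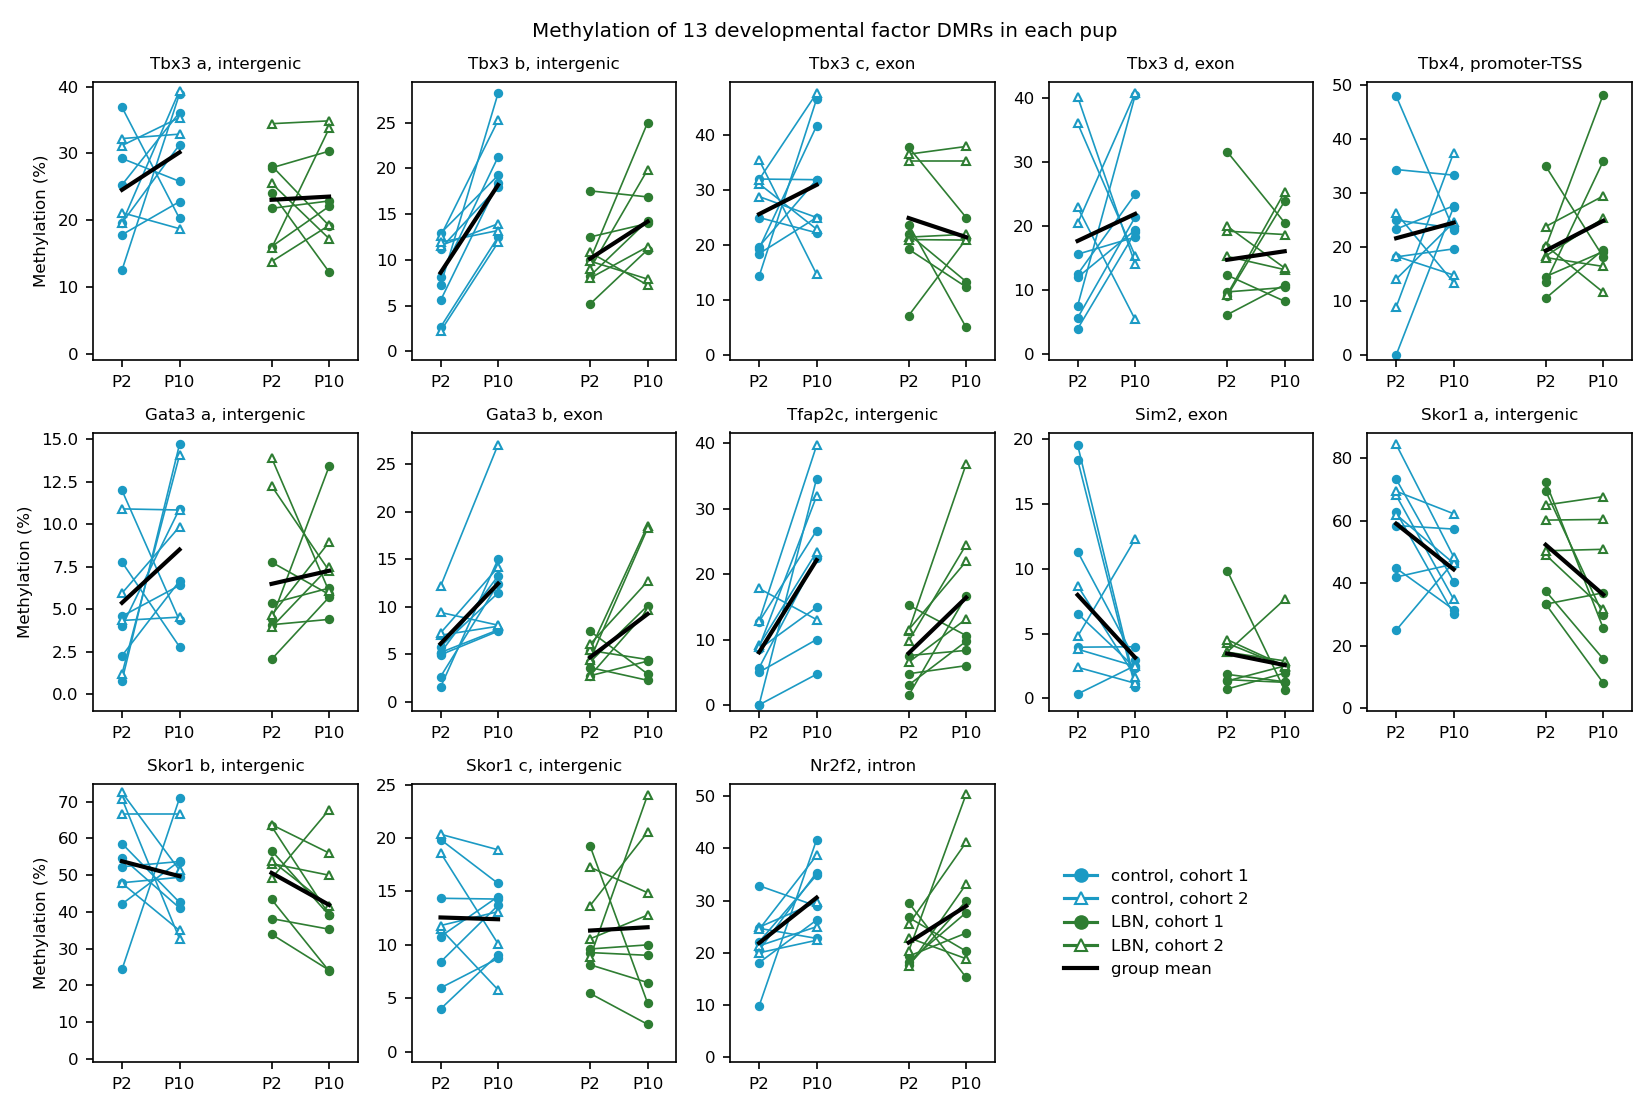
Methylation (%) of the 13 DMRs at P2 and P10, with 1 line per pup (blue, control; green, LBN; filled circles, cohort 1; open triangles, cohort 2) and group means in black; each panel has its own vertical scale. The lines run both ways in every panel. Tbx3 b rose in 10 of 10 control pups and in 6 of 9 LBN pups, and as an experience-table DMR it was chosen for such a group difference.

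To ask how these DMRs changed from P2 to P10, P2 and P10 samples of a pup were compared with limma on the log2 odds of the percentage, with p-values adjusted over all 3417 DMRs. In a swab, fewer cells of a type cannot be told apart from a change of methylation within cells. Among the 8 DMRs of the experience table only, 1 rose and 1 fell, Tbx3 DMR b and Skor1 DMR a. Over all DMRs, 43.7% passed this test, 467 as higher and 1026 as lower at P10. The 8 leave out every member that the age table lists, whereas all DMRs include such DMRs. The members' count of 2 of 8 therefore cannot be weighed against this share.

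Tbx3 DMR b ranged from 2.19% to 17.5% at P2 with a median of 9.86%, and from 7.24% to 28.2% at P10 with a median of 14.3%. The ranges overlapped, but the level rose within 16 of 19 pups. Its mean went from 9.32% ± 3.77 to 16.3% ± 5.83 (n = 19), a difference of 0.90 on the log2 odds scale (SE 0.21, limma adjusted p = 0.00140). All 10 controls rose, from a mean of 8.59% to 18.2%, and 6 of 9 LBNs rose, from 10.1% to 14.2%. As an experience-table DMR it was chosen for such a group difference, so these group values are a description. In cohort 2 alone the mean difference was 0.58 and did not pass (limma adjusted p = 0.214).

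Skor1 DMR a ranged from 25% to 84.4% at P2 with a median of 60.2%, and from 8.14% to 67.7% at P10 with a median of 40.5%. It fell within 13 of 19 pups, from a mean of 55.9% ± 16.3 to 40.6% ± 15.8, which is −0.99 on the log2 odds scale (SE 0.26, limma adjusted p = 0.00399). In cohort 2 alone the mean difference was −0.82 (limma adjusted p = 0.0909). The neighbouring CpG, Skor1 DMR b, went from 52.3% to 46.0%, with −0.37 on the log2 odds scale (SE 0.25, limma adjusted p = 0.240), and passed only without control pup 9 of cohort 1 (−0.55, limma adjusted p = 0.0333). Skor1 DMR c stayed close to its P2 level, with 12.0% at both ages and a difference of −0.025 (SE 0.21, limma adjusted p = 0.940).

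The other DMRs of this kind did not pass the test, which found 73% of planted differences of 1 and 0% of those of 0.5 in simulated data. Only 200 of 3417 DMRs were changed there, against 43.7% passing here, so the adjustment was stricter in the simulation. Levels at the Tbx4 promoter CpG ran from 0% to 48.0% at P2 with a median of 18.3%, and from 11.6% to 48.3% at P10 with a median of 23.5%; the ranges overlapped, and 11 of 19 pups rose. The mean difference was 0.51 (SE 0.33, limma adjusted p = 0.217). Without control pup 4 of cohort 1, the pup at 0% at P2, it was 0.25 (limma adjusted p = 0.472). Gata3 DMR a went from 5.91% to 7.93%, a difference of 0.52 (SE 0.28, limma adjusted p = 0.138), and rose in 13 of 19 pups. Tbx3 DMR a went from 23.8% to 27.0%, with 0.23 (SE 0.21, limma adjusted p = 0.404). The exonic DMR of Sim2 went from 5.84% to 2.88%, falling within 13 of 19 pups, with −0.69 (SE 0.32, limma adjusted p = 0.0797). Its P2 values reached 19.5% in controls, and the call depended on single pups: it passed without control pup 9 of cohort 1, control pup 1 of cohort 2 or LBN pup 4 of cohort 2, with limma adjusted p of 0.0386, 0.0468 and 0.0480.

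The samples differed in their general level. The mean over all DMRs went from 51.7% to 51.3% in cohort 1 and from 48.8% to 42.4% in cohort 2, and the median change of all DMRs was −0.14 on the log2 odds scale. Once each sample was centred on its own median, the median change of all DMRs became 0.080. On that scale Tbx3 DMR b rose by 1.12 and Skor1 DMR a changed by −0.76, and both passed. Gata3 DMR a then also passed, with 0.74 (limma adjusted p = 0.0348), and the small difference at Skor1 DMR c turned to 0.20 without passing. Centring changed the split over all DMRs from 467 higher and 1026 lower to 725 higher and 638 lower.

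**Figure D2:**
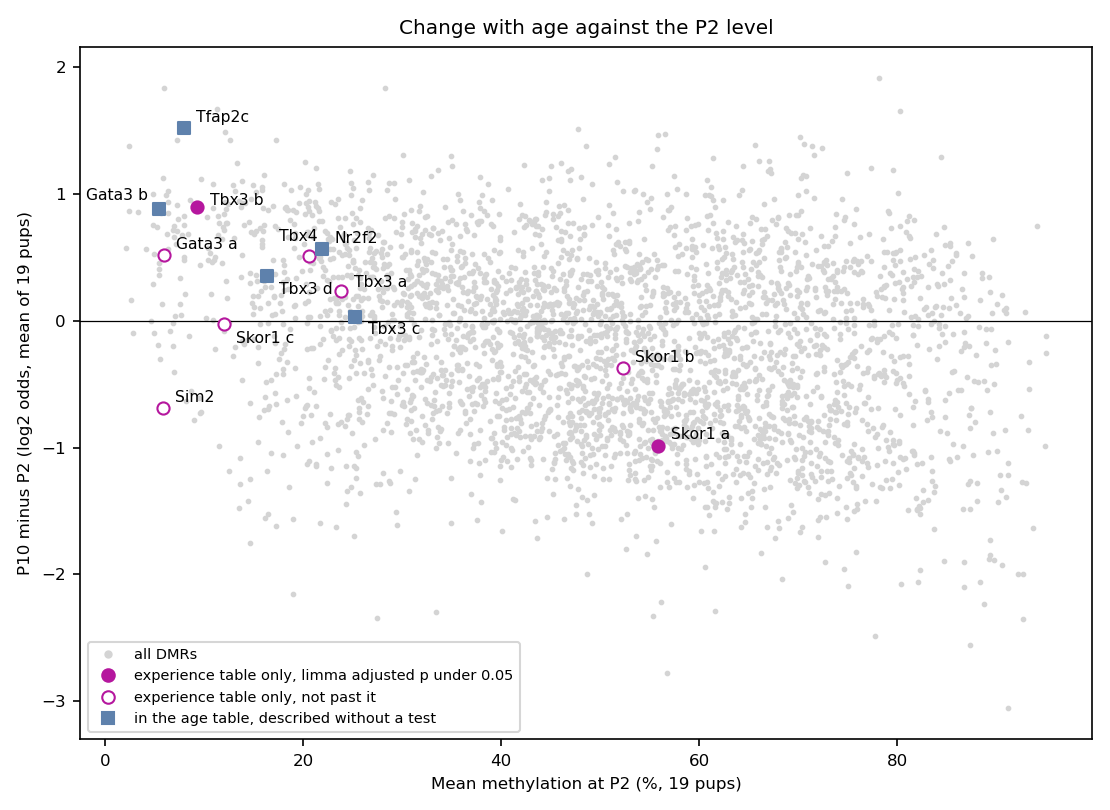
Mean P10 minus P2 difference (log2 odds, 19 pups) against the mean level at P2 (%) for all DMRs in grey and the 13 members in colour (filled circles, experience table only and past limma adjusted p; open circles, not past it; squares, in the age table and described without a test). Apart from Skor1 a and b, the members sit at the low end of the P2 axis, and most of them lie above 0; the P2 level enters both axes.

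At the 5 DMRs of the age table, control pups are the samples the table was made from, so their values are a description. In controls, the mean at Tfap2c went from 8.04% to 22.1% and rose in 9 of 10 pups, Gata3 DMR b went from 6.11% to 12.4% with 9 of 10 higher, and Nr2f2 went from 21.9% to 30.6% with 8 of 10 higher. The exonic Tbx3 DMRs went from 25.6% to 30.9% at c, with 5 of 10 higher, and from 17.7% to 21.9% at d, with 7 of 10 higher.

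Of these 5 DMRs, Tbx3 c and d and Tfap2c are also in the experience table, which was made with the LBN pups, so only Gata3 DMR b and Nr2f2 were chosen without them. In the 9 LBN pups, none of the 5 passed the test (0 at limma adjusted p, 1 at an unadjusted p under the same threshold), where 5.33% of all DMRs did and 26.5% passed unadjusted. Tfap2c came closest. It ranged from 1.45% to 15.3% at P2 with a median of 7.55%, and from 6.00% to 36.8% at P10 with a median of 13.1%, so the ages overlapped while 8 of 9 pups rose. The difference was 1.13 on the log2 odds scale (SE 0.35, limma adjusted p = 0.0659). Gata3 DMR b went from 4.68% to 9.25% with 0.70 (SE 0.36, limma adjusted p = 0.220), and Nr2f2 from 22.0% to 29.0% with 0.47 (SE 0.33, limma adjusted p = 0.379). Tbx3 DMR c went from 24.9% to 21.4% with −0.33 (SE 0.35, limma adjusted p = 0.584), and Tbx3 DMR d from 14.8% to 16.1% with 0.20 (SE 0.33, limma adjusted p = 0.759). In simulated data, the same test in 9 pups found 0% of planted differences of 1 and 93% of those of 2.

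The members were also set beside other weakly methylated DMRs. Of the 604 DMRs under 30% at P2, 182 rose, 99 fell and 323 did not pass, with a median change of 0.23, whereas the median of all DMRs was below 0. The 11 weakly methylated members had a median change of 0.51, with 9 of 11 estimates above 0. Since 5 of the 13 had been chosen for age in the controls, and since the P2 level enters both the limit of 30% and the change, these values are a description of the set.

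One more DMR lies next to a member and is in neither table, a CpG at 72427216 to 72427217 of chromosome 17, 249 bp from Gata3 DMR a. It rose from 12.0% ± 5.27 to 18.4% ± 7.46, higher in 14 of 19 pups, with 0.72 on the log2 odds scale (SE 0.25, limma adjusted p = 0.0230). It did not pass in either cohort alone (limma adjusted p = 0.105 in cohort 1 and 0.163 in cohort 2) or without control pup 3 of cohort 1 (0.0503).

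Tbx2, which lies near Tbx4 on chromosome 10 and also encodes a T-box protein, is the only other T-box gene of the tables. Its intronic CpG at 73289539 is in the age table, and its mean was 6.4% at P2 and 10.3% at P10, higher in 16 of 19 pups. Its other intronic DMR, 73279465 to 73279473, had 24.7% at P2 and 24.4% at P10 (limma adjusted p = 0.881). Among 24 DMRs listed for 21 other developmental transcription factors, 10 were higher at P10, 4 lower and 10 did not pass, and the median change was 0.38. The exonic CpG of Nfic rose from 34.9% to 56.0%, whereas the intronic CpGs of Runx1 and Skil fell from 65.5% to 45.7% and from 71.3% to 52.5%. Among 24 DMRs of 20 homeobox genes, 6 were higher, 2 lower and 16 did not pass. There, Hoxb5 rose from 7.23% to 15.7%, Six2 rose from 3.30% to 5.73%, and Meis1 fell from 13.6% to 5.89%. Both lists include DMRs chosen for age.

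To see whether DMRs of one gene changed together in a pup, the within-pup changes of the 10 pairs of DMRs within Tbx3, Skor1 and Gata3 were correlated over 19 pups. All these DMRs but Gata3 b are negative-weight DMRs of the experience table, chosen for their weight on 1 component of these same changes, so the correlations are given as a description with no test. The adjacent CpGs a and b of Skor1 had a Pearson r of 0.757 and a Spearman rho of 0.733. The r was 0.795 in cohort 1 and 0.668 in cohort 2, and 0.750 without the 2 pups farthest from the median. Whether single reads covered both CpGs is not known. Among 79 pairs of DMRs lying 100 to 500 bp apart anywhere in the series, the median r was 0.659. The exonic Tbx3 CpGs c and d, 356 bp apart, had an r of 0.362 and a rho of 0.212. Gata3 DMRs a and b, 3925 bp apart, had an r of −0.462 and a rho of −0.391, where the median r of 188 pairs 2000 to 10000 bp apart was 0.370.

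**Figure D3:**
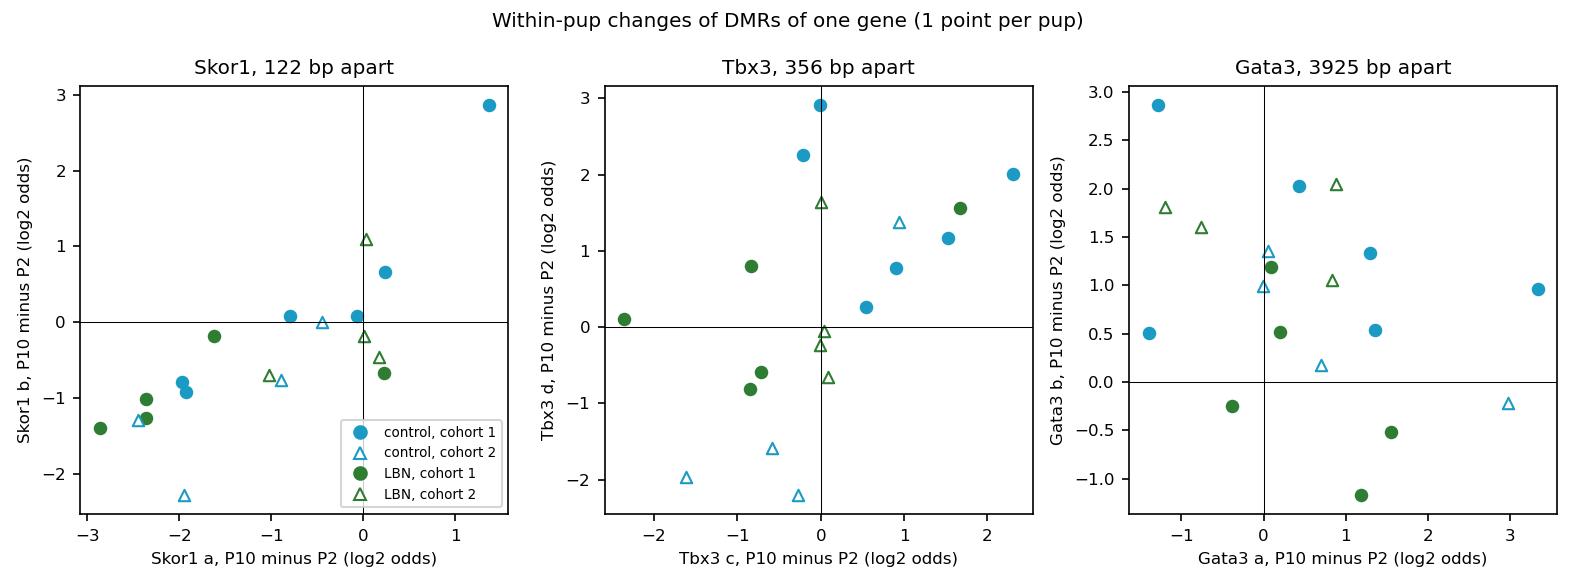
Within-pup change, P10 minus P2 in log2 odds, of 2 DMRs of one gene plotted against each other for Skor1 (a and b), Tbx3 (c and d) and Gata3 (a and b), with 1 point per pup (blue, control; green, LBN; filled circles, cohort 1; open triangles, cohort 2). The Skor1 points lie along a rising line (r 0.757), while the r was 0.362 for Tbx3 and −0.462 for Gata3.

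The DMRs whose within-pup change was most like the mean of the 13, after the cohort means were removed, were an intergenic CpG assigned to LOC102552829 (Pearson r 0.937 over 19 pups), intronic CpGs of Tex12 (0.876) and Camta1 (0.861), an intergenic CpG assigned to Gse1 (0.851) and an exonic CpG of AABR07044011.1 (0.847). They were taken from 445 DMRs, all 5 are negative-weight DMRs of the experience table, and the points share libraries, so these values only describe a likeness.

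The cohorts were also compared at P2, before any pup was assigned to a cage. At P2, the estimate for cohort 2 minus cohort 1, with later group as a covariate, was above 0 at 13 of 13 DMRs, whereas it was above 0 at 38.2% of all DMRs and at 32.1% of those under 30%, a count for which no test was made. The estimates at Sim2 (0.0071, SE 0.46), Tbx4 (0.030, SE 0.55) and Nr2f2 (0.068, SE 0.26) were far smaller than their SE. So were those at Tbx3 DMR a (0.045, SE 0.29) and b (0.049, SE 0.33). As mean percentages, Tbx4 was lower in cohort 2 (18.5%, against 22.0% in cohort 1), and so was Sim2 (4.45% against 6.85%). Of the 13, 1 passed the test, against 12.6% of all DMRs, and 5 passed at an unadjusted p, against 30.2%. The one was Tbx3 DMR d. It ranged from 3.95% to 31.7% with a median of 9.72% in the 11 pups of cohort 1, and from 9.30% to 40.3% with a median of 20.2% in the 8 pups of cohort 2. The ranges overlapped, and the means of 11.5% ± 7.55 and 23.0% ± 10.3 differed by 1.22 on the log2 odds scale (SE 0.37, limma adjusted p = 0.0325). This call was lost on leaving out any 1 of 8 pups (controls 3, 6 and 7 and LBNs 4 and 9 of cohort 1, and controls 1, 5 and 11 of cohort 2), with limma adjusted p from 0.0503 to 0.0840. Tfap2c had 5.81% ± 4.93 and 11% ± 3.38 (1.30, SE 0.47, limma adjusted p = 0.0658) and passed with centred samples (1.56, limma adjusted p = 0.0398), as did Skor1 DMR b (1.03, limma adjusted p = 0.0499).

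The within-pup change differed between the cohorts at 0 of the 13 (limma adjusted p, 1 at an unadjusted p), against 2.4% of all DMRs (18.9% unadjusted). The smallest p was that of Tbx3 DMR d, which went from 11.5% to 19.8% in cohort 1, rising in 9 of 11 pups, and from 23.0% to 18.3% in cohort 2, falling in 6 of 8 (−1.39, SE 0.57, limma adjusted p = 0.178).

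LBN and control pups were compared in their within-pup change. At the 2 DMRs that the experience table does not list, Gata3 b and Nr2f2, no difference passed (0 of 2, and 0 of all 3417 DMRs, 0.0%, with limma, while 3.42% of all DMRs and neither of these passed unadjusted). A DMR outside that table had too small a weight, in these same pups, on the component that separated LBNs from controls. The test at these 2 is therefore no independent check. The LBN minus control difference of the change was −0.37 at Gata3 DMR b (SE 0.47, limma adjusted p = 0.999) and −0.20 at Nr2f2 (SE 0.44, limma adjusted p = 0.999). In simulated data, 67.5% of planted differences of 2 and 0.5% of those of 1 were found by this test.

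For the 11 DMRs of the experience table, the difference between LBNs and controls is how they were chosen, and it is given without a test. With both cohorts together, the difference was below 0 at 12 of the 13 DMRs, Sim2 being the exception. The mean levels at P10 were also lower in LBNs at 12 of 13, the Tbx4 promoter CpG, at 24.9% against 24.5%, being the exception, but they had already been lower at 10 of 13 at P2, before assignment. The largest differences below 0 were those of Tbx3 DMR b (−0.76), Tfap2c (−0.74) and Tbx3 DMR c (−0.67). Tbx3 DMR c went from 25.6% to 30.9% in controls and from 24.9% to 21.4% in LBNs, and Tfap2c from 8.04% to 22.1% in controls and from 7.90% to 16.4% in LBNs. At Sim2 the difference was 0.74, as controls went from 7.98% to 3.15% and LBNs from 3.47% to 2.57%.

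The cohorts gave different signs. In cohort 1 the LBN minus control difference was below 0 at 11 of 13 DMRs with a median of −1.06, and in cohort 2 at 4 of 13 with a median of 0.42. Over all DMRs it was below 0 at 41.3% in cohort 1 and 60.8% in cohort 2, with medians of 0.19 and −0.33, so in each cohort the members' median had the sign opposite to that of all DMRs. The sign differed between the cohorts at 9 of 13 members and at 72.9% of all DMRs. Control and LBN changes overlapped at all 13 DMRs in both cohorts, where 0.585% of all DMRs in cohort 1 and 15.3% in cohort 2 did not overlap. DMRs below 0 in both cohorts were Tbx3 a and b and Gata3 a, and Sim2 was above 0 in both.

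**Figure D4:**
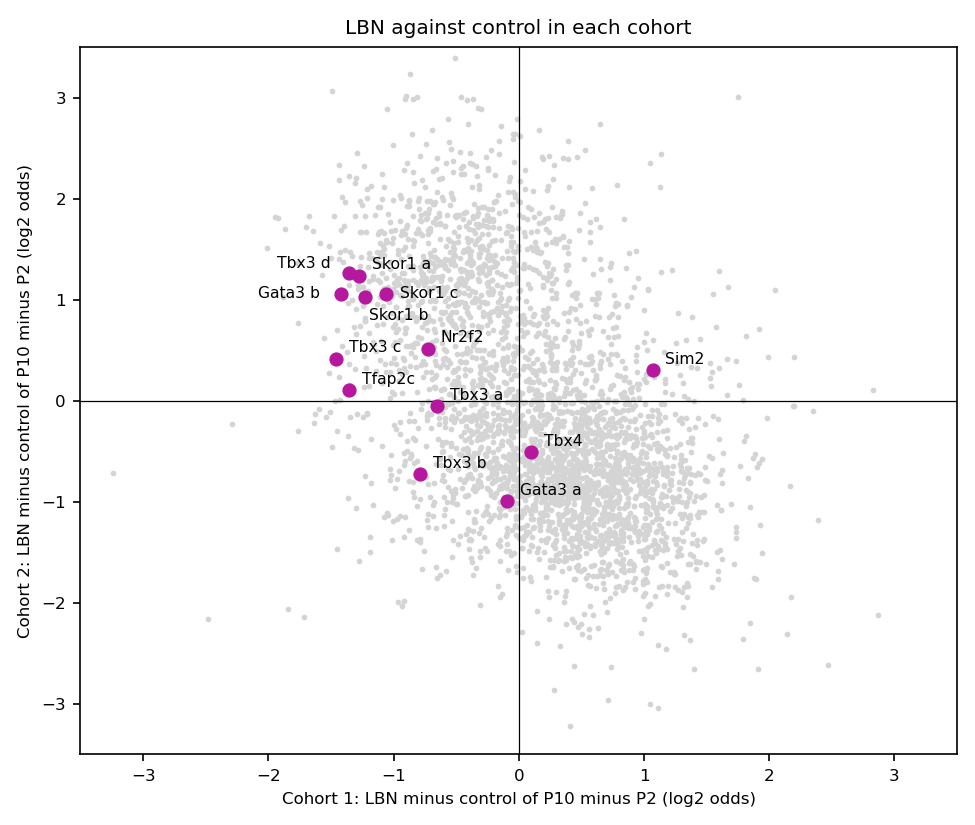
LBN minus control difference of the within-pup change (log2 odds) in cohort 1 (horizontal) and cohort 2 (vertical), for all DMRs in grey (3 lie outside the axes) and the 13 members in purple. The upper left area, below 0 in cohort 1 and above 0 in cohort 2, holds 8 of the members.

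At the 2 DMRs that the experience table does not list, the difference between the cohorts in LBN minus control was tested as an interaction. This comparison was added once the values by cohort had been seen. Neither passed (0 of 2 with limma, and 0.0585% of all DMRs), and 1 of 2 passed at an unadjusted p, as did 24.7% of all DMRs. The difference of cohort 2 minus cohort 1 was 2.47 at Gata3 DMR b (SE 0.81, limma adjusted p = 0.120) and 1.24 at Nr2f2 (SE 0.85, limma adjusted p = 0.344). The test found 0% of planted interactions of 2 in simulated data, so a missed threshold says little here.

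Gata3 DMR b shows the pattern pup by pup. In cohort 1, the 6 controls changed by 2.38 to 13.4 percentage points with all 6 higher at P10, and the 5 LBNs changed by −4.49, 5.91, −1.34, 1.53 and −0.95 percentage points. In cohort 2, the 4 controls changed by 0.95, 14.9, 6.91 and −1.34 percentage points and the 4 LBNs by 6.89, 13.1, 6.62 and 13.8. The controls of cohort 1 were thus all higher at P10 with LBNs on both sides of 0, and in cohort 2 the LBNs were all higher with controls on both sides. In cohort 1 the mean went from 4.22% to 11.2% in controls and from 4.68% to 4.82% in LBNs. In cohort 2 it went from 8.95% to 14.3% in controls and from 4.68% to 14.8% in LBNs. The groups of cohort 2 were thus apart at P2, before assignment, and close at P10.

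Skor1 DMR a, the more methylated end of the set, had changes of −46.8, −39.6, 3.62, −21.7 and −25.2 percentage points in the LBNs of cohort 1 and of 0.22, 2.68, −17.2 and 0.47 in those of cohort 2. The controls changed by −32.8 to 21.8 percentage points in cohort 1, 4 of 6 falling, and by −33.3, −7.18, −15.6 and −36 in cohort 2. In cohort 1, 4 of 5 LBNs and 4 of 6 controls fell, and in cohort 2 all controls fell while 3 of 4 LBNs rose by less than 3 percentage points.

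The groups of cohort 2 already differed at P2 in the mean over the 13 DMRs. It lay between 22.7% and 25.6% in the 4 later controls (mean 24.6%) and between 18.3% and 22.4% in the 4 later LBNs (mean 20.7%), without overlap, in swabs taken before assignment. At P10 the means were 23.7% and 24.3%. In cohort 1, they were 18.6% in controls and 18.2% in LBNs at P2, and 23.9% and 15.8% at P10, where controls lay between 19% and 25.9% and LBNs between 10.6% and 19.3%. The DMRs did not share the P2 gap of cohort 2 evenly. Later controls and LBNs had 71.0% and 56.2% at Skor1 a, 64.5% and 55.0% at Skor1 b and 29.9% and 16.0% at Tbx3 d. Tbx4 (16.9% and 20.1%) and Gata3 a (5.60% and 8.70%) went the other way. DMR by DMR, the P2 levels of later LBNs and controls did not overlap at 2 of 13 members in cohort 2 and 0 of 13 in cohort 1, where they did not at 24.0% and 0.146% of all DMRs. One was Tbx3 DMR d, with 36.1%, 20.5%, 23.0% and 40.3% in later controls and 19.2%, 9.30%, 15.3% and 20% in later LBNs. The other was Gata3 DMR b, with 7.01%, 12.1%, 7.25% and 9.41% in later controls and 2.76%, 5.45%, 6.06% and 4.44% in later LBNs.

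DMRs listed at genes of the cell types that a swab mixes moved as well. All are in the age or the experience table, made from these same pups, so their values and counts are a description. Among the 581 listed DMRs that are not members, 102 rose, 228 fell and 251 did not pass. At 10 DMRs of leukocyte genes, 3 rose, 4 fell and 3 did not pass the limma test, which 43.7% of all DMRs passed. The 3 largest changes were falls, Cxcr4 from 56.0% to 34.9%, Runx1 from 65.5% to 45.7% and Cxcr1 from 31.3% to 15.8%. This Runx1 CpG is also in the list of other developmental factors. The mean over the leukocyte list went from 40.6% to 32% in controls and from 35.0% to 35.4% in LBNs. Cxcr4, Runx1 and Cxcr1 are in the experience table, where a difference between LBNs and controls is how DMRs were chosen. At 8 DMRs of epithelial genes, 1 rose, 5 fell and 2 did not pass. The 3 largest changes were again falls, Aqp3 from 25.2% to 9.95%, Calml3 from 66.6% to 45.9% and Dsc3 from 57.3% to 44.5%. These 3 are age-table DMRs, chosen for age in the controls. The DMRs that rose are not named, as their changes were smaller. The epithelial mean went from 42.6% to 39.4% in cohort 1 and from 29.9% to 17.4% in cohort 2. Within cohort 1 it went from 42.0% to 34.7% in controls and from 43.4% to 44.9% in LBNs, and the leukocyte mean from 41.9% to 33.7% in controls and from 37.7% to 38.3% in LBNs, while the members went from 18.6% to 23.9% and from 18.2% to 15.8%. Within cohort 2 the epithelial mean went from 29.9% to 18.3% in controls and from 29.8% to 16.4% in LBNs. The leukocyte mean there went from 38.8% to 29.5% in controls and from 31.7% to 31.8% in LBNs. The members there went from 24.6% to 23.7% in controls and from 20.7% to 24.3% in LBNs. The mean over the 13 developmental factor DMRs went from 21.0% to 23.8% in controls and from 19.3% to 19.6% in LBNs. The part of cell makeup in the members' values was not tested.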

How the data were processed

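RRBS of 38 buccal swab samples, P2 and P10 of 19 pups, was used. Per the labels and the study's methods, the authors trimmed reads with Trim Galore 0.4.3 and FastQC, aligned them to rn6 with Bismark 0.16.3, filtered CpGs to a coverage above 10 reads, compared the swabs of each pup CpG by CpG, took differences shared by several pups of a group and joined CpGs within 100 bp into DMRs. The deposited values are percentages of methylated reads for each DMR and sample, before correction for cohort. Reads per DMR are not in these tables, so the depth and its effect on precision are unknown and the coverage filter could not be varied. Selecting DMRs for a P2 to P10 difference raises every count of changes with age.

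Gene names, annotation and table membership were taken from the study's supplementary tables, and their weights were not used. The members, the gene lists and the tests were chosen with earlier results of these data known. Every DMR of the 7 genes was named. From the other lists, the DMRs with the 3 largest changes and all those of Tbx2 were named, as were the 5 DMRs most like the members' mean and every unlisted DMR within 20 kb of a member.

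Percentages were transformed to log2((percent + 1)/(100 − percent + 1)). With limma 3.58.1 in R 4.3.3, all 3417 DMRs were fitted: P10 against P2 with the pup as a block, and the within-pup difference or P2 level with cohort and group as terms. P-values are two-sided and adjusted by the Benjamini-Hochberg method over all DMRs, with a threshold of 0.05. They treat pups as independent, and pups that shared a dam would make them too small. The swabs of a pup were paired by its name in the labels, since they come from the same animal; deviations of these pairs from their group means correlated at a mean r of −0.0972. Fits were tested on simulated data that held planted changes at 200 of the 3417 DMRs. Alternatives were other pseudocounts and scales, centred samples, a filter on levels under 10%, another variance model, no or another block, leaving out each pup and fitting 1 cohort at a time. The highest r between 2 samples was 0.932, so no 2 samples held identical values. Which animal a sample came from could not be checked this way. Promoter windows came from RefSeq (GRCr8) and matched 3 of the 7 genes. Python 3.11.15, pandas 2.3.3, scipy 1.17.1 and matplotlib 3.10.9 were used.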

Additional observations from a re-analysis of the deposited data

Results flagged for a closer look

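Of 56 groups tested, the 10 controls or the 9 LBNs of both cohorts at 1 age for each of 13 DMRs and 1 neighbour, 5 held a pup whose gap to the others was wide for the range of its group, and chance gives about 1 in 20 groups. In controls at P10, control pup 5 of cohort 2 had 27.1% at the exonic CpG of Gata3, where the group's median was 11.9%. In LBNs at P10, LBN pup 4 of cohort 1 had 13.4% at the intergenic CpG of Gata3, where the median was 6.25%. The other 3 were all at the exonic DMR of Sim2, which has low levels throughout: 9.87% in LBN pup 2 of cohort 1 at P2 (median 3.57%), 12.3% in control pup 1 of cohort 2 at P10 (median 2.42%) and 7.64% in LBN pup 4 of cohort 2 at P10 (median 2.46%). These Sim2 pups differ between the ages, and the change at Sim2 passed the limma test without either of the latter.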

How the results depend on the processing

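The number of experience-table DMRs that changed with age was 2, and it was 0 in cohort 2 alone and 2 to 4 on leaving out single pups, with 4 reached without control pup 9 of cohort 1 (Skor1 b and Sim2 in addition). Without the replicate block, the pup pairing, 1 of 5 age-table DMRs passed in LBN pups instead of 0, Tfap2c (limma adjusted p = 0.0403), and in cohort 2 alone 2 passed, Tfap2c and Gata3 b. A block on pup numbers that occur in both groups of a cohort left LBN against control at 0 of 2, and the 5 such pairs correlated at a mean r of 0.00593, so the numbers were taken as names. The count for cohort at P2 went from 1 to 0 in percentage points and 3 with centred samples, and ranged from 0 to 4 on leaving out single pups, the highest without LBN pup 3 of cohort 1. Leaving out single pups kept the other counts at 0.

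For the cohort difference in the within-pup change, none of which passed, centring the samples turned the sign at 6 of 13 members and moved the median of all DMRs from −0.35 to 0.18. Among the other values, Skor1 c had 0.0590 in percentage points, 0.20 with centred samples, 0.0539 in cohort 2 alone and −0.12 to 0.0911 on leaving out pups. In LBN pups, Gata3 b had −0.0445 in cohort 1 alone and Tbx3 c 0.0300 in cohort 2 alone. LBN minus control became 1.05 at Gata3 b and 0.51 at Nr2f2 in cohort 2 alone, and ranged from −0.37 to 0.0273 at Nr2f2 on leaving out pups. The cause was not tested. The count of DMRs with an estimate above 0 for cohort 2 minus cohort 1 at P2 ranged from 10 to 13 on leaving out pups. The filter on levels under 10% removed 3 members. With 4 or 5 pups per group and cohort and an unknown number of reads, small differences cannot be resolved.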
